A study of Mus musculus with 12 samples.

Results

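Urea cycle and ammonia handling were followed through 10 genes of the 24421 gene rows counted in newborn liver and lung: Nags, Cps1, Otc, Ass1, Asl, Arg1, Slc25a15, Slc25a13, Oat and Glul. They were taken by symbol for what they encode, with earlier results of these data known, and each had a row in all 12 libraries. The 4 groups were WT liver, null liver, WT lung and null lung, with 3 libraries each, from Man1a2 +/+ and Man1a2 -/- pups bred from +/- parents (allele Man1a2tm1.1Ahe, with exon 2 deleted) and harvested 30 to 60 minutes after birth. The deletion is carried in the germline, so every cell of a null pup has it, and none of the groups received a treatment. The study's design text gives 3 WT and 3 null mice for both organs. Man1a2 encodes a Golgi mannosidase that trims N-linked glycans. Its level was 54.2 to 87.0 CPM (read counts scaled to a common library size with TMM factors) in WT liver and 48.2 to 53.7 in null liver, and 75.5 to 107 in WT lung and 42.5 to 50.2 in null lung. These counts include the exons that the null allele keeps.

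The urea cycle turns toxic ammonia into urea and runs in full in hepatocytes. Nags makes N-acetylglutamate, the obligatory activator of carbamoyl phosphate synthetase (Cps1), which with ornithine transcarbamylase (Otc) works inside mitochondria. Argininosuccinate synthase (Ass1), argininosuccinate lyase (Asl) and arginase (Arg1) work in the cytosol, and the mitochondrial carriers Slc25a15 (ornithine and citrulline) and Slc25a13 (aspartate and glutamate) join both compartments. Oat, the ornithine aminotransferase, takes ornithine out of the cycle, and Glul, glutamine synthetase, captures ammonia as glutamine. In adult liver the cycle enzymes are strongest around the portal vein and Glul is restricted to hepatocytes around the central vein. Around birth, glucocorticoids and glucagon raise several of the cycle's genes.

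The libraries held 26759463 to 42914295 counted reads. As CPM of total counts, without TMM factors, 3 reads stood at 0.0699 to 0.112. The TMM factors move this level: in WT lung 1, 3 reads stood at 0.0726 without them and at 0.0538 CPM with them. The level of 3 reads is a floor for counting error only, since PCR copies are not independent molecules. The 10 hepatocyte markers, among them Alb, Afp and Apoa1, summed to 256495 to 323044 CPM in WT liver and 273327 to 388347 CPM in null liver. Null lung 1 did not carry the marker profile of its label: its 6 lung epithelium markers summed to 458 CPM, against 19081 to 26231 CPM in the other 5 lungs. In the same library the 5 skeletal muscle markers summed to 8226 CPM, against 16.96 to 52.0 CPM in the other lungs. Null liver 1 also held muscle RNA, with 6625 CPM against 2.35 to 4.55 CPM in the other 5 livers, while its hepatocyte markers were in the range of the other livers. Values without these libraries are given beside the genotype calls. In whole organs, fewer cells of a type and less RNA per cell cannot be told apart.

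The row of Ass1 was read with caution, because its reads can be placed on a near-identical copy. Ass1 lies at chr2:31470207-31520672 of GRCm38 on the plus strand, with 16 exons in its main transcript of 1696 bases (GENCODE M21). The processed pseudogene Gm5424, at chr10:62071123-62072362, matches 1240 of these bases, including the whole coding sequence, with 6 differences and 99.5% identity. Of all windows of 75 bases, the length of a read, 65.1% of those in the coding sequence and 46.9% of those in the transcript also occurred exactly in Gm5424. A read-length stretch of both genes is shown to make this likeness visible: coding bases 619 to 693 of Ass1 and the matching bases of Gm5424, read from the GENCODE transcripts on GRCm38, with the single differing base in capitals:
Ass1: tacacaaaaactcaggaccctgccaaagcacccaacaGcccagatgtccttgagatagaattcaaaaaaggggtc
Gm5424: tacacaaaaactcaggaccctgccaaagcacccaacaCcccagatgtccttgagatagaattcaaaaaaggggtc
The livers had 22, 48 and 22 reads on Ass1 in WT and 19, 33 and 25 in null, and Gm5424 had 0 reads in all 12 libraries. Ass1 is a core enzyme of newborn liver, and the enzymes before and after it in the cycle, Otc and Asl, had 2437 to 4829 and 12741 to 21035 reads in the same libraries. The 202 bases before and 254 bases after the matched stretch are outside the copy, so shared sequence covers only part of the transcript. How multiply placed reads were treated is not given in the sources used here, and its part in the low count was not tested. The level of Ass1 is for this reason reported as uncertain throughout. Smaller overlaps concerned 3 other genes. For Nags, 19.0% of windows were shared with Gm11586 on the opposite strand. For Glul, 7.91% were shared with other rows, among them the antisense Teddm2 and the pseudogene Glns-ps1, and Oat lies within the annotated span of Fgfr2 on the same strand without shared windows.

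The comparison of null with WT liver asked which steps of ammonia disposal differed in the mutant pups at birth. Asl and Slc25a15 fell in null liver, to 0.74-fold and 0.57-fold of WT, and no gene of the 10 rose. Cps1 and Otc, the enzymes of the mitochondrial entry, had estimates above 0 with standard errors (SE) larger than the estimates. All 10 genes passed the filter on low counts in liver, and 2 were called lower and 0 higher by edgeR's quasi-likelihood test (Benjamini-Hochberg adjusted p under 0.05 and at least 1.2-fold). Across all 14343 genes tested, 13.4% were called lower and 13.5% higher, so 2 of 10 is not far from the background. The median log2 fold change of the 10 genes was -0.27, against 0.02 over all genes tested, and 7 of the 10 were negative, against 48.2% of all genes. At an unadjusted p under 0.05 there were 3 genes, the third being Arg1, where 41.4% of all genes tested passed that threshold in either direction.

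**Figure D1:**
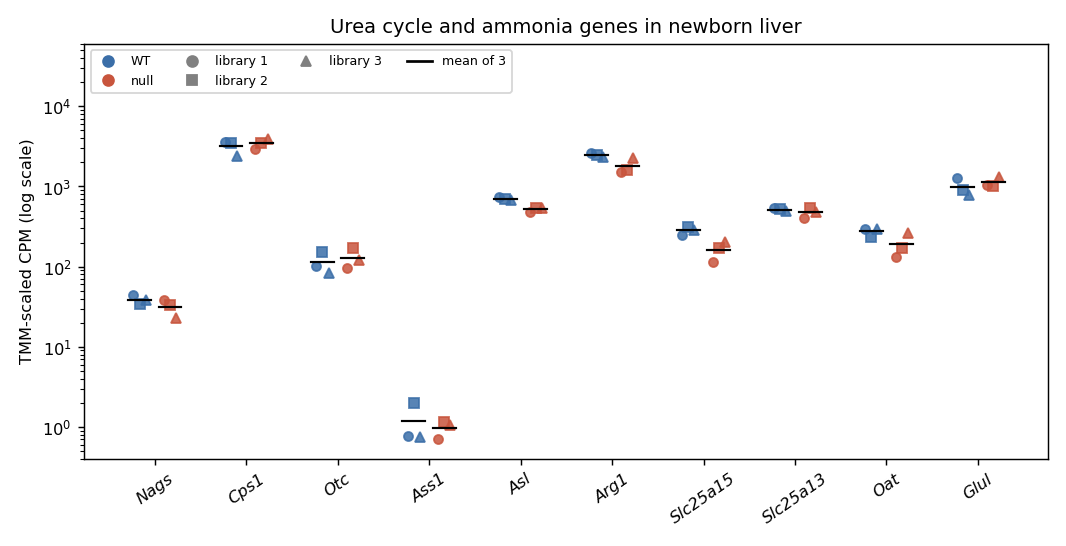
TMM-scaled CPM of the 10 genes in each liver library on a log axis, with WT in blue, null in red, a symbol per library number and a bar at the mean of 3. The symbols of Asl, Arg1 and Slc25a15 do not overlap between genotypes, those of Cps1, Otc and Glul do, and Ass1 sits near 1 CPM.

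Slc25a15 carries ornithine into mitochondria and citrulline out of them, and it spans chr8:22375551-22398597 on the minus strand (7 exons). Its level was 247, 313 and 288 CPM in WT livers 1, 2 and 3 and 115, 171 and 200 CPM in null livers 1, 2 and 3. Every null liver was below every WT liver, and null liver 1, the library with muscle RNA, was the lowest. The means were 283 ± 33.3 and 162 ± 43.5 CPM (SD, n = 3 each), and the log2 fold change was -0.80 (SE 0.21, edgeR adjusted p = 0.0290). Without null liver 1 the change was -0.60 with an adjusted p of 0.0254, the smallest change among the alternatives, over which the adjusted p ran from 0.00149 to 0.0934. The call was lost when WT liver 1, WT liver 2, WT liver 3 or null liver 2 was left out, with adjusted p of 0.0581, 0.0926, 0.0934 and 0.0552.

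Asl cleaves argininosuccinate to arginine and fumarate, and it lies at chr5:130011258-130029247 on the minus strand (17 exons). Asl stood at 740, 700 and 678 CPM in the WT livers and at 480, 543 and 546 CPM in the null livers. Both groups were tight and the gap between them, from 678 down to 546 CPM, was larger than the range within either. The means were 706 ± 31.7 and 523 ± 37.0 CPM (SD, n = 3 each), and the log2 fold change was -0.43 (SE 0.11, edgeR adjusted p = 0.0288). Without null liver 1 it was -0.37 with an adjusted p of 0.0796, and over all alternatives the adjusted p ran from 0.00159 to 0.0995 with the change between -0.57 and -0.37. Leaving out WT liver 1, 2 or 3 or null liver 2 also ended the call, with adjusted p of 0.0995, 0.0615, 0.0839 and 0.0521.

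Arg1, which splits arginine into urea and ornithine, lies at chr10:24915221-24927484 on the minus strand (8 exons). Its WT livers read 2631, 2475 and 2315 CPM and its null livers 1516, 1617 and 2244 CPM. The groups did not overlap, but null liver 3 came close to WT liver 3. Arg1 was not called, with a log2 fold change of -0.47 (SE 0.17, adjusted p = 0.0805). DESeq2 put it at -0.46 with an adjusted p of 0.0343, and without null liver 3 it was -0.67 with an adjusted p of 0.0141. Without null liver 1 it was -0.35 with an adjusted p of 0.185. Over all alternatives its adjusted p ran from 0.0141 to 0.616.

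Asl, Arg1 and Slc25a15 were the members whose groups did not overlap, all of them lower in null. Of all genes tested, 23.5% were lower and 23.1% were higher in null without overlap. With 3 libraries against 3, an exact permutation test cannot give a two-sided p below 0.1. Oat converts ornithine to glutamate semialdehyde and lies at chr7:132557478-132576398 on the minus strand (10 exons). It read 296, 236 and 293 CPM in WT and 134, 170 and 266 CPM in null liver. Null liver 3 lay among the WT values and the other null livers below them, and the log2 fold change of -0.54 (SE 0.25, adjusted p = 0.154) was not called. Without null liver 3 Oat passed, at -0.87 with an adjusted p of 0.0214, and without null liver 1 it was at -0.33 with an adjusted p of 0.292. Over all alternatives the adjusted p ran from 0.0214 to 0.317. The number of calls depended on every library. Without null liver 3, 4 of the 10 genes were called lower (Asl, Arg1, Slc25a15 and Oat), where 10.2% of all genes tested were. Without WT liver 1, 2 or 3 or null liver 2 none of the 10 was. In those fits 995 of 14541, 1170 of 14546, 837 of 14529 and 1660 of 14582 genes were called lower. The main fit had 1925 of 14343, so calls were fewer over all genes too.

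Without null liver 1, 1 of the 10 genes, Slc25a15, was called lower, where 11.9% of all genes tested were. The muscle RNA of that library came with a larger fall in Slc25a15, Asl, Arg1 and Oat, and its part in them was tested only by leaving the library out.

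Cps1, the entry enzyme of the cycle and its most abundant member by reads, lies at chr1:67123026-67231259 on the plus strand with 38 exons. Cps1 read 3640, 3515 and 2426 CPM in WT and 2923, 3456 and 3962 CPM in null liver. The lowest and the second highest values were both WT, and the log2 fold change was 0.11 (SE 0.19, adjusted p = 0.695). It turned to -0.03 when libraries were scaled by total counts alone. Otc, the enzyme that joins carbamoyl phosphate to ornithine, is X-linked (chrX:10252305-10321024, plus strand, 10 exons). It was at 103, 152 and 83.4 CPM in WT and 95.1, 169 and 119 CPM in null liver, with the second library highest in each genotype. The change of 0.18 (SE 0.27, adjusted p = 0.637) was within the spread. Both genes are also expressed in intestinal epithelium, whose 6 markers summed to 11.3 to 19.9 CPM in WT and 6.08 to 7.88 CPM in null livers. Fabp2 made up most of each sum (7.21 to 17.6 CPM in WT, 3.70 to 5.54 CPM in null livers). Lgals4 was also lower in every null liver, Vil1 overlapped between genotypes, and Cdx1 and Cdx2 had at most 5 reads in a liver. The part of intestinal RNA in the levels of Cps1 and Otc was not tested.

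Nags was the least abundant enzyme apart from Ass1. It was at 44.3, 33.8 and 38.0 CPM in WT and 38.7, 32.9 and 23.1 CPM in null liver, and its log2 fold change was -0.30 (SE 0.19, adjusted p = 0.275). Slc25a13, the aspartate carrier that feeds the Ass1 step, read 532, 517 and 499 CPM in WT and 404, 541 and 484 CPM in null liver, a change of -0.12 (SE 0.14, adjusted p = 0.557). For both, the null livers spanned a wider range than the WT livers and overlapped them. Ass1 stood at 0.774, 1.98 and 0.753 CPM in WT and 0.716, 1.15 and 1.05 CPM in null liver, a change of -0.24 with the largest SE of the 10, 0.44 (adjusted p = 0.703). Glul, at chr1:153899944-153909723 on the plus strand (7 exons), read 1275, 903 and 782 CPM in WT and 1030, 1022 and 1320 CPM in null liver. Its change was 0.18 (SE 0.21, adjusted p = 0.542), and the highest libraries of the genotypes, at 1275 and 1320 CPM, were close.

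**Figure D2:**
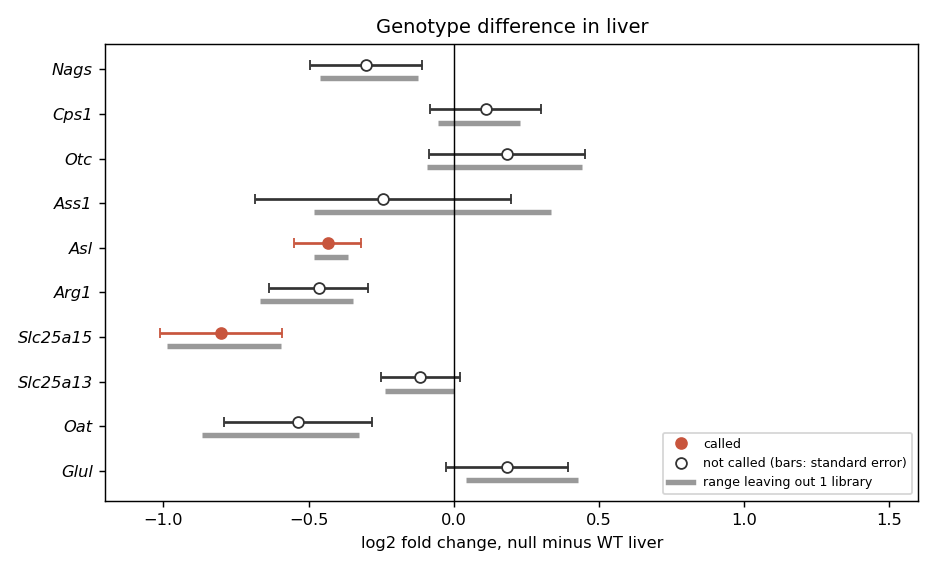
Log2 fold change of null minus WT liver for each gene, with its standard error, filled red where called. The grey line is the range of the estimate when 1 of the 6 libraries is left out: it stays below 0 for Nags, Asl, Arg1, Slc25a15 and Oat and crosses 0 for Cps1, Otc, Ass1 and Slc25a13.

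Ratios of reads within a library do not depend on how libraries are scaled, and they were formed after the levels had been seen. There were 1.38, 1.42 and 1.05 Cps1 reads per Arg1 read in WT livers and 1.93, 2.14 and 1.77 in null livers. Per Asl read there were 4.92, 5.02 and 3.58 Cps1 reads in WT and 6.08, 6.36 and 7.26 in null livers. Per Slc25a15 read there were 14.7, 11.2 and 8.42 Cps1 reads in WT and 25.5, 20.2 and 19.8 in null livers. In each of these ratios the genotypes did not overlap. How many ratios of other gene pairs separate the genotypes was not counted. Of single genes tested, 23.5% were lower and 23.1% higher in null without overlap. Cps1 was above its partner in every liver of both genotypes, and the partners are the same 3 genes whose levels did not overlap. The ratios therefore restate that difference mixed with the difference in Cps1, which was not called. Between WT liver 3 and null liver 3, Arg1 was at 2315 and 2244 CPM and Cps1 at 2426 and 3962 CPM. The ratio of Otc to Slc25a15, the enzyme and the carrier of the same ornithine, was 0.417, 0.486 and 0.289 in WT and 0.830, 0.988 and 0.596 in null liver. Relative to Alb, the main hepatocyte transcript, Slc25a15 gave 2.19 to 2.93 reads per 1000 Alb reads in WT and 0.857 to 1.48 in null, and Arg1 17.4 to 23.9 in WT and 11.3 to 14.0 in null. For Asl the ranges were 4.91 to 6.90 and 3.40 to 4.71. Oat, whose CPM overlapped, was narrowly apart on this scale, at 1.659 to 2.99 and 0.999 to 1.657. Cps1 overlapped on this scale, at 24.7 to 33.0 and 21.8 to 30.0. Alb itself was at 98193 to 142490 CPM in WT and 115303 to 160540 CPM in null livers, and a higher Alb lowers each of these ratios.

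All 10 genes together took 0.781%, 0.665% and 0.613% of the reads in WT livers and 0.505%, 0.588% and 0.616% in null livers, ranges that overlapped. Scaled by total counts alone, Asl (-0.57), Arg1 (-0.61) and Slc25a15 (-0.95) were called lower, where 15.9% of all genes were, with the median of all genes at -0.11 in place of 0.02. The same 3 genes were called lower by DESeq2, where 11.4% of genes were, and with upper-quartile factors, where 18.6% were. With total counts alone, 1069 genes were called higher and 2284 lower, against 1931 and 1925 with TMM factors.

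Across the 6 livers, the levels of Arg1 and Oat moved together (Pearson r = 0.94 of log2 CPM), as did Asl and Slc25a15 (0.91), Asl and Arg1 (0.89) and Arg1 and Slc25a15 (0.88). Cps1 was near 0 with Asl (-0.01) and with Slc25a15 (-0.0028), and closest among the members to Glul (0.80). These values describe 6 points that share genotype and depth, and the genotype difference is part of them. The genes closest to Cps1 over the 6 livers were 1700024P16Rik (r = 0.96), Chp1, Uqcrfs1, Spin4 and Nr3c2, and those closest to Glul were Pfkfb2 (r = 0.997), Vrk2, Marveld3, Ythdc2 and Tsr1, out of 13162 genes. Over all 12 libraries Cps1 was closest to Fgg (r = 0.999), Ttr, Apoa2, Plg and Fgb, which are secreted hepatocyte products, and that likeness spans liver and lung. Over the same libraries Glul was closest to Dhx15 (r = 0.95), Usp49, Klf15, Polr3a and Eed, out of 14165 genes.

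Promoter sequences of 300 bases, from 250 before to 50 after the start, were given by RefSeq (GRCm38.p6) for 7 of the 10 genes, and not for Cps1, Asl and Arg1. They are shown for the ornithine carrier, which was lower in null liver, and for Oat, whose levels followed it across livers, with matches to the searched motifs in capitals. Slc25a15 has another listed start, which is not shown.
Slc25a15, chr8:22398572-22398871, minus strand: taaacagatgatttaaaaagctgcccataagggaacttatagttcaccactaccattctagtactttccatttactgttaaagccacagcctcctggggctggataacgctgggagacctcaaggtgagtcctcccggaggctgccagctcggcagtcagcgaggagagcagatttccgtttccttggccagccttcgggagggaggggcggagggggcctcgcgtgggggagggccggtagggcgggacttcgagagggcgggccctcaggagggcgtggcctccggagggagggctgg
Oat, chr7:132576349-132576648, minus strand: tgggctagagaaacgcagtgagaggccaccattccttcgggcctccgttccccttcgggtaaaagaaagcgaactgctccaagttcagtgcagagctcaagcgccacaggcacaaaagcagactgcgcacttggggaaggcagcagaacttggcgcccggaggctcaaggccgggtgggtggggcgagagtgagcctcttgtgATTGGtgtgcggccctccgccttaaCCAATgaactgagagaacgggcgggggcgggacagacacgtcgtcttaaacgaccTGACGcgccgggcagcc
On both strands the search covered the CCAAT box (CCAAT), the cyclic AMP response motif (TGACG), the glucocorticoid response motif (TGTTCT), the C/EBP motif (TTGCNNAA) and the TATA box (TATAAA). Oat held the CCAAT box at bases 204 and 229 of the window and the cyclic AMP motif at base 284. These matches did not overlap each other, and Slc25a15 held none of the motifs at either start. Of all 32851 promoters in the table, 37.4% held the CCAAT box, 20.8% the cyclic AMP motif, 19.0% the glucocorticoid motif, 10.8% the C/EBP motif and 13.6% the TATA box. Slc25a13 and Glul also held the CCAAT box, and Slc25a13 and Nags the cyclic AMP motif. These are matches of letters in a short window and not binding sites.

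The neighbouring pathways were counted over lists chosen by function, with earlier results of these data known. Of all genes tested in liver, 13.5% were called higher and 13.4% lower in null. Of 16 tested genes of arginine, ornithine and proline metabolism, 5 rose and 2 fell in null liver. Those that rose most were the arginine transporter Slc7a2, from a mean of 276 to 1007 CPM (log2 fold change 1.86, adjusted p = 0.00201), the mitochondrial basic amino acid carrier Slc25a29 (1.06, adjusted p = 0.0212), the proline synthesis enzyme Pycr1 (0.94, adjusted p = 0.0214) and the creatine synthesis enzyme Gamt (0.87, adjusted p = 0.00505). The other 3 called genes, named after their values were seen, were the arginine transporter Slc7a1, which rose (0.87, adjusted p = 0.00555), and Pycrl, another proline synthesis enzyme (-0.78, adjusted p = 0.0168), and the agmatinase Agmat (-0.43, adjusted p = 0.0317), which fell. Of 21 tested genes of glutamate, glutamine and aspartate supply, 2 were called higher and 2 lower, not far from these shares of all genes. The glutamine transporter Slc38a2 (1.10, adjusted p = 0.0250) and the asparagine synthetase Asns (0.49, adjusted p = 0.0231) rose, and the alanine aminotransferase Gpt (-0.96, adjusted p = 0.00534) and the mitochondrial glutamate carrier Slc25a22 (-0.79, adjusted p = 0.0352) fell. Without null liver 1, the library with muscle RNA, all of these genes stayed called in the same direction except Agmat (-0.38, adjusted p = 0.0801). The median log2 fold changes of the lists were 0.15 and 0.10, against 0.02 over all genes.

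Of 12 regulators known to act on urea cycle genes, 2 rose in null liver, where 13.5% of all genes tested were called higher. The glucocorticoid receptor Nr3c1 rose from 71.4 to 145 CPM (log2 fold change 1.02, adjusted p = 0.00201) and Klf15, a factor of amino acid catabolism, from 111 to 182 CPM (0.71, adjusted p = 0.00788). Among 10 other periportal genes, 1 was called, the serine dehydratase-like gene Sdsl (-0.85, adjusted p = 0.00314), and their median was 0.01. Of all genes tested, 13.4% were called lower, and the counts of both zonal lists are not far from that share. Among 10 other pericentral genes 2 fell, Cyp1a2 (-3.70, adjusted p = 0.0267) and Rnf43, an inhibitor of Wnt signalling (-1.30, adjusted p = 0.00292), with a median of -0.68. Glul, itself a pericentral gene of adult liver, was not among the called genes. Without null liver 1 the regulators and zonal genes named here stayed called in the same direction, and the hepatocyte factor Cebpa (0.75, adjusted p = 0.0266) and the pericentral claudin Cldn2 (-1.92, adjusted p = 0.0104), both named after their values were seen, were called in addition.

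In WT pups, liver was compared with lung in a fit that treated the libraries as independent. All 10 genes passed the filter and all 10 were called higher in WT liver, with a median log2 fold change of 5.62, against 37.2% of 15635 genes called higher and 39.8% called lower. Cps1 differed most, with 7.94, 0.369 and 0.530 CPM in the WT lungs and a log2 fold change of 10.07 (SE 1.29, edgeR adjusted p = 6.83e-05), followed by Otc at 9.24 (SE 0.42). WT lung 1, the lung with the most reads of both genes in WT, set the size of these estimates: without it they were 12.78 and 10.55. Arg1 was at 11.7, 10.2 and 12.6 CPM in the WT lungs (log2 fold change 7.76), Asl at 14.2, 13.8 and 11.9 CPM (5.74), Slc25a13 at 11.9, 10.3 and 12.6 CPM (5.49) and Slc25a15 at 17.8, 16.0 and 18.0 CPM (4.05). Nags lay at 0.243 to 0.369 CPM in the WT lungs (6.97). Ass1 had 3, 1 and 0 reads in the WT lungs and is at the floor there.

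The genes that make glutamine and glutamate differed least. Glul was at 438, 345 and 427 CPM in the WT lungs, a log2 fold change of 1.30 (SE 0.21, adjusted p = 0.000365). Oat was at 178, 188 and 191 CPM in the WT lungs, a change of 0.58 (SE 0.12, adjusted p = 0.00185). The sign for Oat depends on the scaling: as CPM of total counts it was at 243, 178 and 243 in the WT livers and at 241, 260 and 262 in the WT lungs, and the fit on that scale gave -0.20 (adjusted p = 0.202). On that scale the median of all genes was -0.83, against -0.04 with TMM factors, and the other 9 genes stayed called higher in liver. TMM factors were 0.672 to 0.828 in livers and 1.19 to 1.39 in lungs, so the liver and lung levels are set on a scale where most genes are taken as equal.

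**Figure D3:**
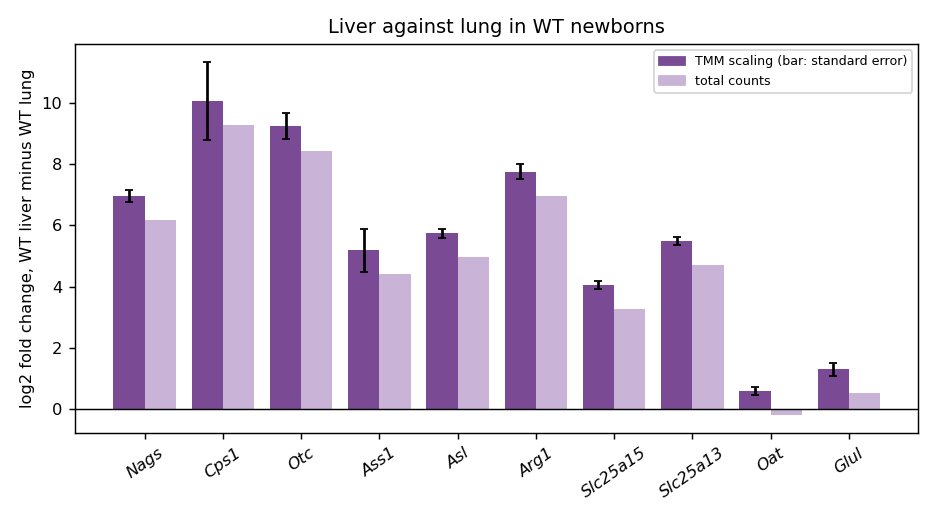
Log2 fold change of WT liver minus WT lung for each gene with TMM scaling (dark bars, with standard error) and with total counts (light bars). Oat is the gene whose sign differs between the scalings, and the remaining genes are above 0 on both.

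Per kilobase of the main transcript, the order of levels in WT liver was Arg1 (1675 CPM per kb), Cps1 (575), Asl (387), Glul (353), Slc25a13 (168), Oat (128), Slc25a15 (82.4), Otc (48.6), Nags (19.1) and the uncertain Ass1 (0.689). Arg1 was therefore above Cps1 per length although Cps1 had more reads. Asl and Glul are neighbours whose libraries overlapped on this scale. In WT lung the order was Glul (145 CPM per kb), Oat (86.3), Arg1 (7.79), Asl (7.29), Slc25a15 (5.02), Slc25a13 (3.78), Cps1 (0.531), Nags (0.154), Otc (0.071) and Ass1 (0.016). Per kilobase of all exons of a gene merged, in place of the main transcript, Glul (297 CPM per kb, libraries at 235 to 384) was the third in WT liver and Asl (146, libraries at 140 to 153) the fourth, without overlap, and Asl was the sixth in WT lung. Glul led the lung list with both lengths.

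The low counts of Cps1 in lung were set against Alb, a gene of hepatocytes. Alb itself varied between lungs, from 666 to 16764 reads. Per 1000 Alb reads there were 26.4, 21.0 and 19.4 Cps1 reads in WT lungs 1, 2 and 3 and 22.2, 21.4 and 16.2 in null lungs 1, 2 and 3, where the 6 livers had 21.8 to 33.0. The ratio in lung was thus within or below the liver range, with WT lungs 2 and 3 and null lungs 2 and 3 below the lowest liver. Some of these ratios rest on few Cps1 reads: 14 and 24 in WT lungs 2 and 3 and 29 in null lung 1. Otc had at most 20 reads in a lung, and its ratio was 0 to 4.05, around the 0.711 to 1.46 of the livers. For Slc25a15 the ratio was 53.5 to 910 in lungs and 0.857 to 2.93 in livers, and for Asl 47.4 to 787 and 3.40 to 6.90, without overlap. Oat (594 to 10718 in lungs, 0.999 to 2.99 in livers) and Glul (1459 to 19686 and 6.34 to 11.6) differed most. Whether the Cps1 reads of lung libraries come from hepatocyte RNA was not tested.

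**Figure D4:**
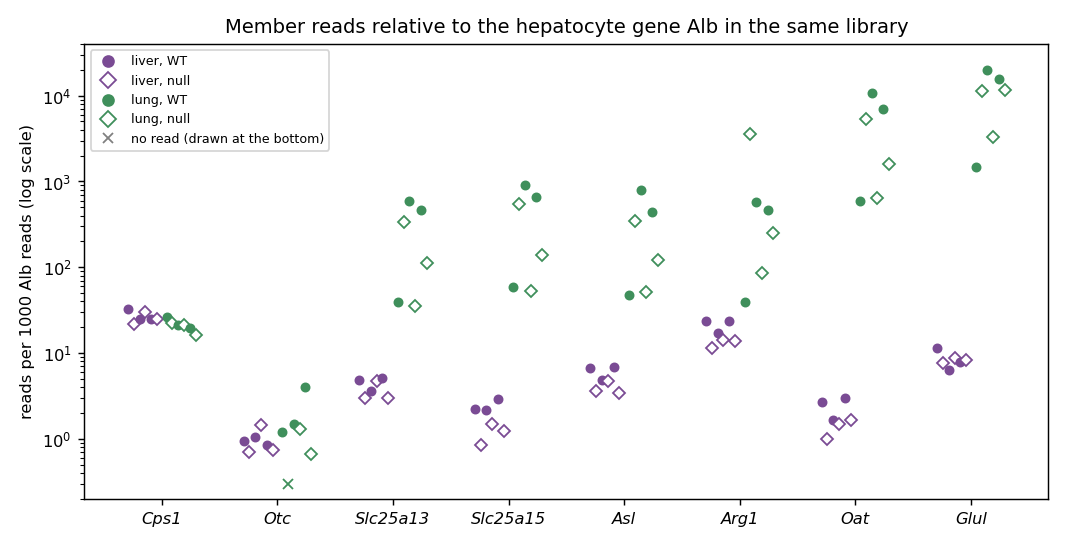
Reads of 8 genes per 1000 Alb reads of the same library on a log axis, for 6 livers (purple) and 6 lungs (green), with WT filled and null open. Lung and liver points of Cps1 lie together between 16.2 and 33.0, while those of Slc25a13, Slc25a15, Asl, Arg1, Oat and Glul lie apart.

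The comparison of null with WT lung asked whether the same genes differed in the organ that lacks a full urea cycle. Otc and Ass1 did not pass the filter on low counts there, and 0 of the other 8 genes were called, with 2 at an unadjusted p under 0.05, Arg1 and Glul, where 25.0% of all genes passed that threshold. Across all 15591 genes tested in lung, 0.0898% were called higher and 0.237% lower. The spread in null lung was set in large part by null lung 1, the library with muscle RNA and few lung epithelium markers.

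Arg1 read 11.7, 10.2 and 12.6 CPM in the WT lungs and 132, 26.9 and 27.6 CPM in null lungs 1, 2 and 3. Every null lung was above every WT lung, and null lung 1 stood far above the other null lungs. The fit gave a log2 fold change of 2.45 (SE 0.69, edgeR adjusted p = 0.116), which was not called. Without null lung 1 it was 1.24 with an adjusted p of 0.00101. DESeq2 on all 6 lungs gave 2.43 with an adjusted p of 0.00317, and over all alternatives the adjusted p ran from 0.00101 to 0.374. Glul read 438, 345 and 427 CPM in the WT lungs and 424, 1037 and 1260 CPM in the null lungs. Null lung 1 was at the WT level here, and null lungs 2 and 3 were well above it. The change was 1.17 (SE 0.41, adjusted p = 0.158), and without null lung 1 it was 1.504 with an adjusted p of 0.000732. DESeq2 gave 1.19 with an adjusted p of 0.0481, and the adjusted p ran up to 0.415 over the alternatives.

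Without null lung 1, Arg1 and Glul were thus called higher, 2 of the members tested, where 18.0% of all genes tested were called higher. DESeq2 on all libraries called the same 2 genes, with 5.86% of genes called higher. Of all genes tested, 16.3% were higher and 19.7% lower in null lung without overlap, and Arg1 was among the former. White blood cell markers summed to 1199 to 1434 CPM in WT lungs, 2069 and 2578 CPM in null lungs 3 and 2, and 119 CPM in null lung 1. The Kupffer cell list, which includes the macrophage markers Adgre1 and Marco, summed to 14.0 to 17.3 CPM in WT lungs, 9.45 CPM in null lung 1 and up to 29.1 CPM in the other null lungs. Both sums were higher in null lungs 2 and 3 than in each WT lung. Of the Kupffer cell list, Adgre1 and Marco were above each WT lung in both of these null lungs. Cd5l, Clec4f and Vsig4 overlapped with the WT lungs. Lyz2 made up most of the white blood cell sum in these lungs. It was at 903 to 1237 CPM in WT and 2099.8 and 1577 CPM in null lungs 2 and 3. S100a8, S100a9, Mpo and Elane were also above each WT lung in both null lungs. Ptprc was not, at 22.8 to 27.05 CPM in WT and 22.7 and 23.7 CPM in null lungs 2 and 3. Ngp and Camp overlapped between genotypes. The part of both sums in the levels of Arg1 and Glul was not tested.

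**Figure D5:**
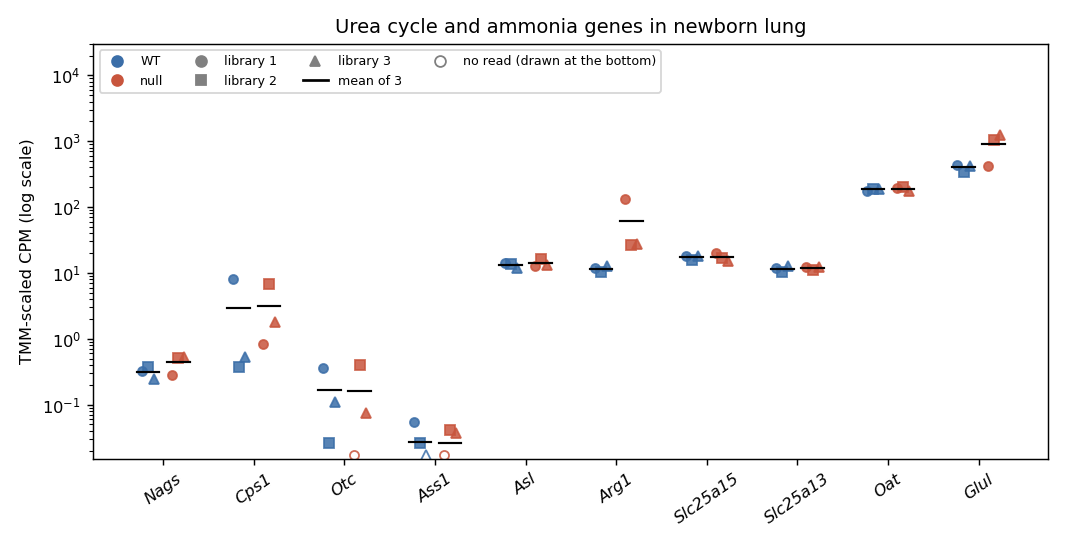
TMM-scaled CPM of the 10 genes in each lung library on a log axis, with WT in blue, null in red, a symbol per library number and a bar at the mean of 3; open symbols are libraries without a read. Arg1 is highest in null lung 1 at 132 CPM, and Glul is raised in null lungs 2 and 3 but not in null lung 1.

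The remaining genes overlapped between genotypes in lung. Asl was at 14.2, 13.8 and 11.9 CPM in WT and 12.7, 16.2 and 13.3 CPM in null lungs, with a log2 fold change of 0.09 (SE 0.17). Slc25a15 was at 20.02, 16.8 and 15.4 CPM in the null lungs (0.02, SE 0.16), so the genotype difference it had in liver was not detected in lung. Oat was at 195, 199 and 176 CPM in the null lungs (0.04, SE 0.14), and Slc25a13 at 12.4, 11.1 and 12.2 CPM (0.05, SE 0.17). For these 4 genes the sign turned negative when libraries were scaled by total counts. Nags had 10 to 29 reads per lung (0.51, SE 0.39). Cps1 was at 0.823, 6.69 and 1.77 CPM in the null lungs, with an estimate of 0.06 and a SE of 1.32.

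Whether the genotype difference itself differed between lung and liver was tested as an interaction in a fit of all 12 libraries. That fit treated the libraries as independent. None of the 10 genes was called by edgeR, 3 had an unadjusted p under 0.05 (Arg1, Slc25a15 and Asl), where 13.9% of all genes did, and DESeq2 called 1 higher, Arg1, where 1.49% of genes were. Over 16155 genes, 0.130% were called higher and 0.241% lower. The lung effect minus the liver effect was 2.90 for Arg1 (SE 0.76, adjusted p = 0.136), 0.98 for Glul (SE 0.50, adjusted p = 0.422), 0.82 for Slc25a15 (SE 0.28, adjusted p = 0.235) and 0.52 for Asl (SE 0.20, adjusted p = 0.292). Without null lung 1, Arg1 (1.72, adjusted p = 0.00963) and Glul (1.34, adjusted p = 0.0376) were called higher, where 2.29% of genes were. When both null libraries numbered 1 were left out, Arg1 was called at 1.59 with an adjusted p of 0.0102, where 2.25% of genes were called higher, and Glul was at 1.25 with 0.0545. Slc25a15 was then at 0.49 (adjusted p = 0.153) and Asl at 0.51 (adjusted p = 0.161). The fall of Slc25a15 and Asl in liver was thus not shown to differ from the lung.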

How the data were processed

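RNA from liver and lung of WT and null newborn mice was measured in 12 libraries, 3 for each genotype and tissue, made with a stranded poly-A kit and read as pairs of 75 bases. The authors deposited raw read counts per gene symbol, without normalization, 1 table per library. The submitters' processing notes name FastQC, STAR 2.5.2a, DESeq2 and mm10; the gene counter, annotation, strand setting and handling of multiply placed reads are not given in the sources used here. This can move counts of genes that overlap others or have copies. Groups and numbers come from the sample titles.

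Tests used edgeR 4.0.16 in R 4.3.3 (filterByExpr, TMM factors, quasi-likelihood test, Benjamini-Hochberg adjustment over all genes tested); genes with an adjusted p under 0.05 and at least a 1.2-fold change were called. CPM use TMM factors from all 12 libraries, and standard errors were taken as log2 fold change divided by the root of F. Positions, lengths and shared 75-base windows come from GENCODE M21 on GRCm38. The test recovered changes planted in simulated data that were larger than those of Asl and Slc25a15 in liver. The simulation used a common dispersion and no library with RNA of another tissue. It therefore cannot say how well changes of the size called here are recovered. Alternatives were DESeq2 1.42.0, other scaling factors and filters, a replicate block, all 12 libraries in 1 fit and leaving out each library. Scaling by total counts was chosen after seeing the data. So was the interaction fit without both null libraries numbered 1, and so were the neighbouring lists without null liver 1.

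All members were described. From each list of neighbouring genes, up to 4 called genes with the largest liver change were named first, and for likeness the 5 genes with the highest Pearson r of log2(CPM + 0.5) with Cps1 and with Glul, at a mean of at least 1 CPM. A result on 1 of the regulators is not reported here. The members and lists were chosen with earlier results of these data known. Between liver and lung, same-numbered libraries deviated together (r of 0.184 to 0.263 in WT, 0.366 to 0.468 in null). Differently numbered null libraries reached 0.251, and null liver 1 and null lung 1 share muscle RNA. The design text gives 3 mice per genotype for both organs, so these numbers were taken to pair the samples. The labels do not state this pairing, the main tests did not model it, and the replicate block did. Between WT and null these numbers mark different animals. No library was a copy of another, the lowest chi-square per gene being 15.4. Depth ran from 26759463 to 42914295 counted reads.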

Additional observations from a re-analysis of the deposited data

How the results depend on the processing

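In WT liver against WT lung all 10 genes were called higher in each alternative but 3: with total counts (chosen after seeing the data) 9 were called and Oat turned to -0.20, DESeq2 called 9 and gave no adjusted p for Cps1, and a minimum of 10 counts per library left out Otc and Ass1, so that 8 were called. In liver, the main count of 2 genes called lower was 1 with the replicate block, 1 with all 12 libraries in 1 fit, and 3 with DESeq2, upper-quartile factors or total counts, which added Arg1 (adjusted p of 0.0343, 0.0402 and 0.0145). Over all genes, 1620 of 14343 were called lower with the block and 967 of 16155 with all 12 libraries, against 1925 of 14343 in the main fit. Leaving out 1 library gave 0 to 4 of the 10 genes: 0 without WT liver 1, 2 or 3 or null liver 2, 1 without null liver 1 and 4 without null liver 3. Asl was at an adjusted p of 0.0622 with the block and 0.0728 with all 12 libraries. These replicate numbers are shared by different animals (r of -0.0244, -0.00225 and 0.143 between same-numbered WT and null livers). The block changed no other call of the 10 genes in any comparison, including those where liver and lung were taken as paired. In lung, the main count of 0 became 2 with DESeq2, 1 with all 12 libraries (Arg1, adjusted p = 0.0201) and 0 to 2 leaving out 1 library, the 2 without null lung 1. Over all genes, 1044 of 16155 were called higher in lung with all 12 libraries, against 14 of 15591 in the main fit. For the difference between tissues, the main count of 0 became 1 with DESeq2, 1 without both null libraries numbered 1, and 0 to 2 leaving out 1 library, again the 2 without null lung 1. The causes were not tested beyond these fits.

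Apart from Oat between the tissues, signs turned as follows. Total counts turned Cps1 in liver to -0.028 and, in lung, Cps1 to -0.082, Asl to -0.043, Slc25a15 to -0.10, Slc25a13 to -0.077 and Oat to -0.088. Upper-quartile factors turned Cps1 to -0.00098 and Slc25a15 to -0.0079 in lung, and keeping genes with at least 1 count turned Slc25a15 to -0.0051. For the difference between tissues Cps1 turned to 0.73 with the replicate block and to 0.26 without both null libraries numbered 1. Leaving out 1 library moved the liver change of Cps1 between -0.054 and 0.23, of Otc between -0.091 and 0.44, of Ass1 between -0.48 and 0.34 and of Slc25a13 between -0.24 and 0.00047. In lung it moved Cps1 between -1.16 and 2.76, Asl between -0.016 and 0.14, Slc25a15 between -0.11 and 0.10 and Slc25a13 between -0.036 and 0.11. The tissue difference of Cps1 ran from -1.28 to 2.68, of Otc from -2.12 to 1.03 and of Ass1 from -0.35 to 1.26. Depth limits Otc and Ass1 in lung, with at most 20 and 3 reads per library.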
